A study of Sus scrofa with 6 samples.

Results

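F-box proteins are the substrate-recognising adaptors of a large family of cullin-RING ubiquitin ligases. In such a ligase, called SCF, the F-box holds the adaptor to SKP1, SKP1 sits on the scaffold CUL1, and a RING protein (RBX1 or RNF7) brings in the ubiquitin-charged E2 enzyme. The remainder of the adaptor picks the protein to be tagged: FBXW members carry WD40 repeats, FBXL members carry leucine-rich repeats and FBXO members carry other domains. In brain, single members are known for roles in neuronal migration, synapses, the circadian clock and iron sensing.

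Messenger RNA was sequenced in bulk from the cortex of 6 male pigs at 140 days of age. Of the animals, 3 carried a UBE3A deletion inherited from the mother, and 3 were wildtype. UBE3A encodes a HECT-type ubiquitin ligase, a different class from SCF, and most neurons use only its maternal copy. Each library came from 1 animal, and the labels do not say which part of UBE3A is deleted. The F-box genes were all rows that the files class as protein-coding and name FBXO, FBXL or FBXW with a number. This gave 51 of 28965 genes (20288 of them protein-coding): 31 FBXO, 16 FBXL and 4 FBXW genes. A total of 47 had at least 10 exon reads in 3 or more libraries and were tested among 14556 genes that passed the same filter. The 4 others were FBXL13, FBXL22, FBXO24 and FBXO47.

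The deletion libraries held 28109327, 22297177 and 21802529 exon reads (replicates 1 to 3) and the wildtype libraries 23823287, 28126173 and 19796762. UBE3A itself stood at 9.07 ± 2.26 CPM in deletion and 91.0 ± 2.91 CPM in wildtype cortex (SD, n = 3 each; CPM are reads scaled to library size, by TMM), and every library matched its genotype label. Cortical excitatory neuron markers summed to 3727 to 4562 TPM in deletion and 4161 to 4925 TPM in wildtype libraries (8 of 8 found, none at 0), and TBR1 and SLC17A7 were present in all 6. Inhibitory neuron markers summed to 767 to 1049 TPM in deletion and 1178 to 1304 TPM in wildtype libraries (8 of 8 found, none at 0). On that scale the groups did not overlap, and none of the marker sums was rescaled for the mitochondrial share of TPM given below. Of the 8 inhibitory neuron genes 7 had negative log2 fold changes, while PVALB stood at 0.45. By CPM 4 of them (SST, GAD2, LHX6 and SLC32A1) were lower in every deletion library, as were 6.99% of all tested genes. Without SST the sums overlapped, at 422 to 557 TPM in deletion and 405 to 614 TPM in wildtype libraries. Oligodendrocyte markers ranged widely in both groups, 3785 to 10993 TPM in deletion and 4639 to 10177 TPM in wildtype libraries (8 of 9 found, none at 0). All 8 had positive log2 fold changes (median 0.35), and in each the groups overlapped. Of 7 astrocyte markers 4 were positive and 3 negative (median 0.14). Among them SOX9 and GFAP were higher in every deletion library by CPM, as were 6.8% of all tested genes, while by TPM the groups of GFAP overlapped. Choroid plexus markers summed to 30.7 to 50.7 TPM in deletion and 24.7 to 33.0 TPM in wildtype libraries. Of these genes 4 had positive and 1 a negative log2 fold change (median 0.92). TTR stood at 21.1 TPM in deletion replicate 1 and at 0.81 to 1.74 TPM in the other libraries. Mitochondrially encoded mRNAs took 13.7, 16.9 and 16.1% of reads in deletion replicates 1 to 3 and 13.1, 11.2 and 13.6% in wildtype replicates 1 to 3, without overlap. Deletion replicate 1 (13.67%) and wildtype replicate 3 (13.61%) nearly met. The part of these differences in the F-box results was not tested beyond the covariate fits given below.

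The level of F-box mRNA in pig cortex was dominated by a single gene, FBXL16. On the per-length TPM scale of the deposited files FBXL16 stood at 1122, 1107 and 972 TPM in the deletion libraries and 1471, 1183 and 1155 TPM in the wildtype libraries. Its 6-library mean was 1168 TPM, 11.1 times that of the next member. FBXL16, a leucine-rich-repeat protein abundant in brain, has been reported to bind SKP1 without assembling with CUL1. It took 47.3, 49.8 and 46.3% of all F-box TPM in the deletion libraries and 53.2, 47.5 and 47.7% in the wildtype libraries. The next 7 members by mean TPM lay close together, between 70.1 and 106 TPM. They were FBXO41, FBXW7, FBXO6, FBXO9, FBXO31, FBXW11 and FBXO11. The median tested member had 17.9 TPM, 34 of the 47 had more than 10 TPM, and 39 had 100 reads or more in every library.

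**Figure D1:**
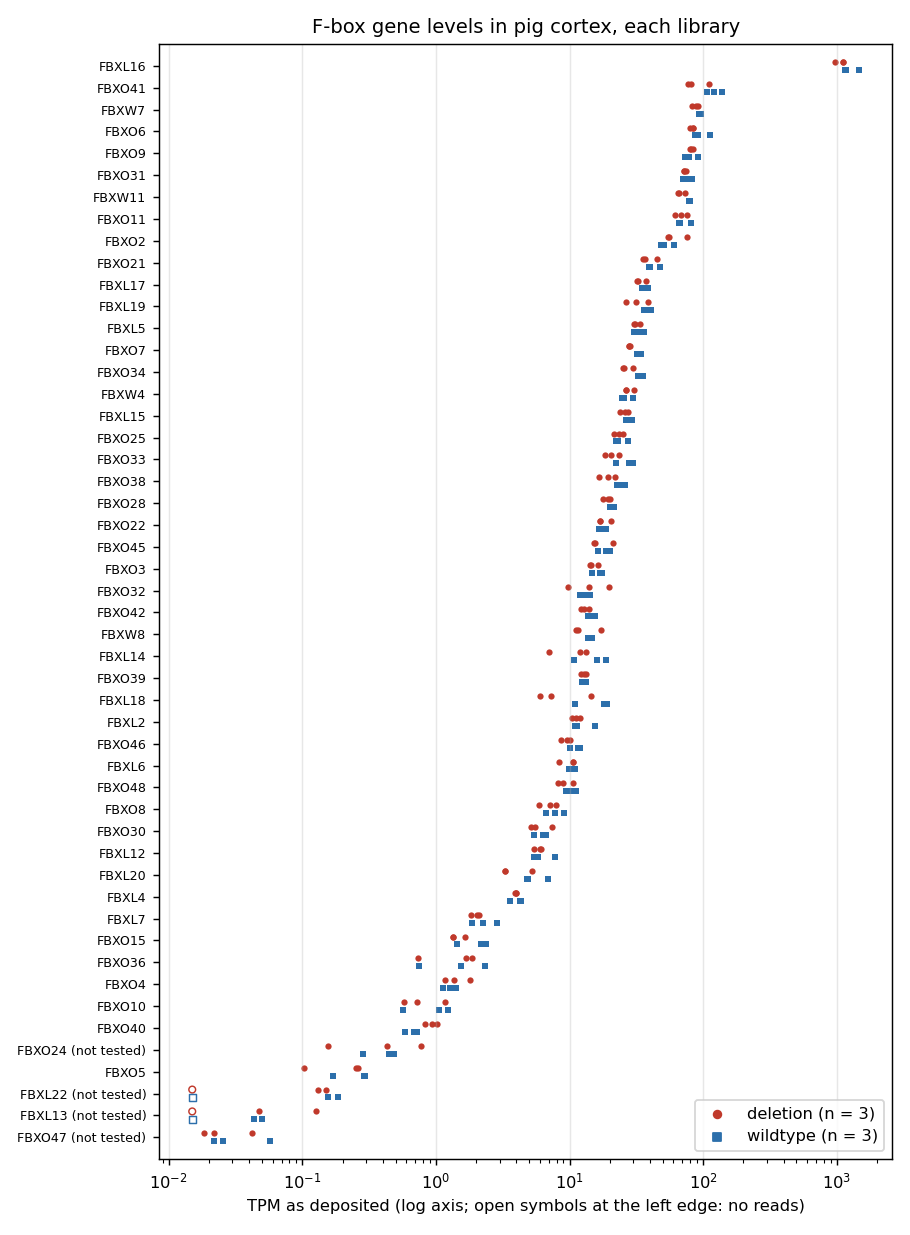
TPM of 50 of the 51 F-box genes in each library on a log axis (red circles, 3 deletion libraries; blue squares, 3 wildtype libraries; open symbols at the left edge, no reads). FBXL16 stands alone at the top, and the 4 genes that were not tested lie below 1 TPM.

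At the low end, the filter fell in a range of few reads. The tested members nearest to it were FBXO36, with 7, 14 and 15 reads in the deletion libraries, against 6, 14 and 16 in the wildtype libraries, and FBXO5 (EMI1, an inhibitor of the anaphase-promoting complex in dividing cells), with 8, 17 and 17 reads in the deletion libraries, against 11, 22 and 16 in the wildtype libraries. Just outside it was FBXO24, with 17, 3 and 8 reads in the deletion libraries, against 9, 6 and 7 in the wildtype libraries. FBXL13, FBXL22 and FBXO47 had between 0 and 3 reads in any library, at which no difference was detectable.

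Summed over all 51 genes, F-box mRNA came to 2370.1, 2225 and 2099.8 TPM in deletion replicates 1 to 3 and 2764, 2490.3 and 2423 TPM in wildtype replicates 1 to 3. Every deletion library thus lay below every wildtype library on that scale. Mitochondrially encoded mRNAs held 36.7, 41.3 and 40.0% of TPM in the deletion libraries and 34.99, 31.5 and 35.8% in the wildtype libraries. With the mitochondrial genes taken out and the rest scaled to the same total, the F-box sums were 3746, 3788 and 3502 TPM in the deletion libraries and 4252, 3636 and 3775 TPM in the wildtype libraries, and the groups overlapped.

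The main comparison asked which F-box genes differ in level with maternal UBE3A loss. No member passed edgeR's quasi-likelihood test at an adjusted p of 0.05 over all genes tested (0 of 47, lowest adjusted p = 0.678), against 0.00687% of all tested genes, which is UBE3A alone. DESeq2, which gave 6 members no adjusted p, and limma-voom also called 0 members. At an unadjusted p under 0.05 there were 2 members, FBXO40 (higher) and FBXO41 (lower), or 4.26% against 7.29% of all tested genes (3.4% higher and 3.89% lower). That number was 2 with DESeq2 and 5 with limma-voom. It depended on single libraries: 0 without deletion replicate 3 or wildtype replicate 1, 4 without wildtype replicate 3 and 5 without deletion replicate 1. It was 7 with an oligodendrocyte marker score as a covariate, 6 with library size and 1, FBXO32, with the mitochondrial share. The share of all tested genes under that p is known only for the main fit. The numbers from the other fits thus have no background and are not read as results about the members.

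The fitted differences were small and centred on 0. Of the 47 tested members 26 had positive and 21 negative log2 fold changes of deletion over wildtype, against 50.4% positive and 49.6% negative among all tested genes. Their median was 0.0081, beside 0.0021 for all tested genes. The median took the other sign without deletion replicate 2 (-0.0062) and without deletion replicate 3 (-0.017). In 38 members the size was under 0.25, and in 35 the 95% interval lay within a 1.5-fold change either way. The median was 0.0081 for the 29 tested FBXO genes, -0.013 for the 14 FBXL genes and 0.027 for the 4 FBXW genes. Between animals of 1 group, the median SD of a member was 0.16 on the log2 scale, beside 0.18 for all tested genes.

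**Figure D2:**
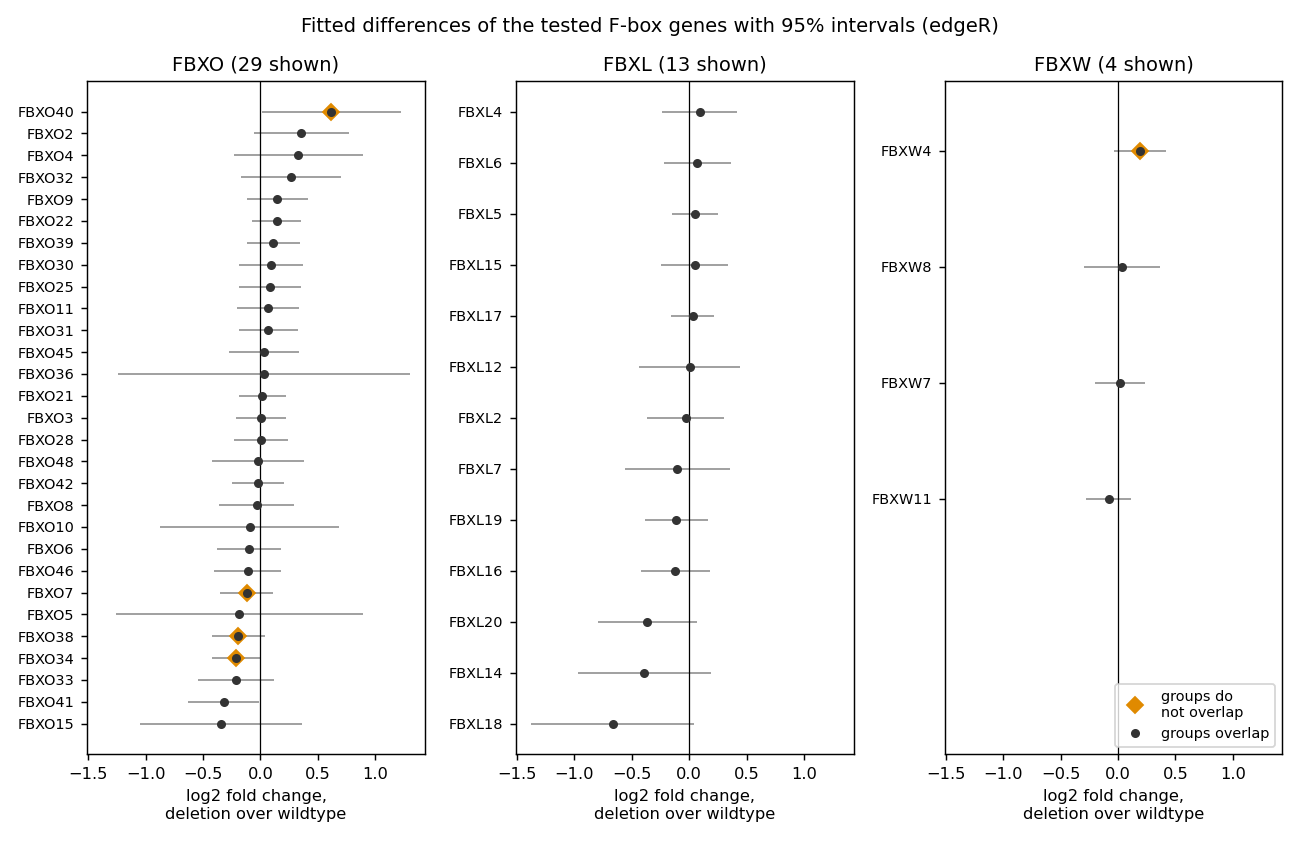
Log2 fold change of deletion over wildtype with its 95% interval for 46 of the 47 tested F-box genes, by subfamily. Orange diamonds mark 5 genes whose libraries do not overlap between groups by CPM, and the widest intervals belong to the genes with fewest reads (FBXO36, FBXO5).

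**Figure D3:**
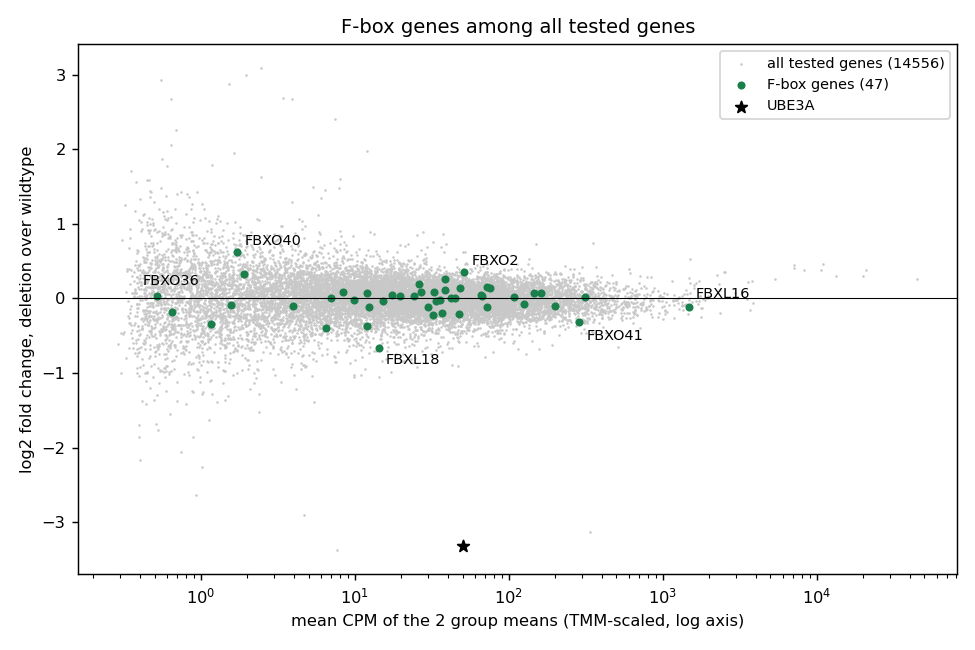
Log2 fold change of deletion over wildtype against mean CPM (log axis) for the 14556 tested genes (grey), the 47 F-box genes (green) and UBE3A (star). The F-box genes lie between -0.67 and 0.62, inside the range of all tested genes, with UBE3A near its lower end.

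In 6 members the 3 deletion libraries lay apart from the 3 wildtype libraries by CPM, 12.8% of those tested, against 13.8% of all tested genes. Among them, FBXW4 and FBXO40 were higher throughout in deletion cortex (as were 6.8% of all tested genes), and FBXO34, FBXO38 and FBXO7 were lower throughout (as were 6.99%). The members' share is close to the background, so the separations are given as values.

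Among members known from neurons, FBXO41 had the lowest p of all F-box genes. FBXO41, a neuron-specific adaptor needed for neuronal migration in mice, measured 293, 233 and 239.9 CPM in deletion replicates 1 to 3, against 372, 298 and 287 CPM in wildtype replicates 1 to 3. Deletion replicates 2 and 3 were the lowest of all 6 libraries, and deletion replicate 1 fell between wildtype values. The mean was 255 ± 32.9 CPM in deletion and 319 ± 46.4 CPM in wildtype cortex (SD, n = 3 each), and the difference did not pass (log2 fold change -0.32 ± 0.13 SE, adjusted p = 0.678 by edgeR). In bulk tissue, fewer neurons and less mRNA per neuron cannot be told apart. FBXL20 (SCRAPPER), a synaptic adaptor that marks the release protein RIM1 for degradation in mice, also had deletion replicates 2 and 3 lowest, at 12.9, 9.22 and 9.09 CPM in the deletion libraries, against 12.1, 16.0 and 12.04 CPM in the wildtype libraries (log2 fold change -0.36 ± 0.19 SE, adjusted p = 0.681 by edgeR). FBXL20 stood at -0.21 without wildtype replicate 2 and at -0.56 without deletion replicate 1, and FBXO41 at -0.20 without wildtype replicate 1. With the mitochondrial share, which itself narrowly separates the groups, as a covariate FBXO41 stood at -0.16 and FBXL20 at 0.13.

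FBXL16, the most abundant member, measured 1369.6, 1539.9 and 1321 CPM in deletion replicates 1 to 3, against 1812, 1350.0 and 1434 CPM in wildtype replicates 1 to 3. Wildtype replicate 1 was the highest, and the other 5 libraries were mixed (log2 fold change -0.12 ± 0.13 SE, adjusted p = 0.81 by edgeR, 95% interval -0.42 to 0.18). Without wildtype replicate 1 the log2 fold change was 0.017. FBXO45, which works with the giant ligase MYCBP2 rather than CUL1 in mouse neurons, and FBXW8, which pairs with CUL7, had log2 fold changes of 0.031 and 0.036. Of these 5 neuronal members 2 were positive and 3 negative (median -0.12), and none passed the adjusted test.

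The adaptors that bind sugar chains on misfolded glycoproteins were represented by FBXO2 and FBXO6. FBXO2, which is enriched in brain, measured 47.6, 73.5 and 52.0 CPM in deletion replicates 1 to 3, against 41.9, 40.7 and 52.6 CPM in wildtype replicates 1 to 3. Deletion replicate 2 was the highest library, and the other deletion libraries fell below wildtype replicate 3 (log2 fold change 0.36 ± 0.18 SE, adjusted p = 0.681 by edgeR). Without deletion replicate 2 it stood at 0.15, and with the mitochondrial share as a covariate at -0.088. FBXO6 measured 181, 205 and 191 CPM in the deletion libraries, against 242, 183 and 191 CPM in the wildtype libraries, with wildtype replicate 1 highest (log2 fold change -0.10 ± 0.12 SE, adjusted p = 0.84 by edgeR). In RefSeq's gene order for assembly Sscrofa11.1, FBXO44, a related gene, lies between these 2 genes, and no row of the files carries that name. How reads shared by such related genes were assigned is not stated, which leaves their split uncertain.

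FBXW11, a clock-linked member and the adaptor of PER proteins, beta-catenin and the NF-kappa-B inhibitor, measured 121, 126 and 119.8 CPM in the deletion libraries, against 132, 121 and 134 CPM in the wildtype libraries (log2 fold change -0.080 ± 0.085 SE, adjusted p = 0.804 by edgeR), and its groups overlapped.

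All 5 members of the muscle-wasting group, which holds FBXO25 only as a relative of FBXO32, had positive log2 fold changes (median 0.093). None passed. FBXO32 (atrogin-1), which muscle induces under fasting and glucocorticoids, measured 53.5, 30.3 and 42.0 CPM in deletion replicates 1 to 3, against 35.7, 35.9 and 33.2 CPM in wildtype replicates 1 to 3. The deletion libraries were spread on both sides of a narrow wildtype range, with deletion replicate 1 highest and deletion replicate 2 lowest of all 6 (log2 fold change 0.27 ± 0.19 SE, adjusted p = 0.72 by edgeR). Without deletion replicate 1 its log2 fold change was 0.047. With the mitochondrial share as a covariate it was 0.70 (edgeR adjusted p = 0.319), and without deletion replicate 2 0.45. FBXO40, a muscle adaptor of IRS1 in mice, was among the members with few reads, with 48, 48 and 50 reads in the deletion libraries, against 34, 33 and 30 in the wildtype libraries. Scaled, these were 1.70, 2.20 and 2.34 CPM in the deletion libraries, against 1.43, 1.14 and 1.51 CPM in the wildtype libraries, and the deletion libraries lay above all wildtype ones (log2 fold change 0.62 ± 0.26 SE, adjusted p = 0.678 by edgeR, 95% interval 0.011 to 1.22). With the mitochondrial share as a covariate FBXO40 stood at 0.19. Skeletal muscle markers summed to 104 to 113 TPM in deletion and 96.6 to 111 TPM in wildtype libraries (5 of 7 found), nearly all of it the creatine kinase CKM, which brain can also express, and MYH7 stood near 1 TPM in each library. In the fit all 4 tested muscle markers also had positive log2 fold changes (median 0.17). CKM lay higher in every deletion library, as did 6.8% of all tested genes. It measured 243, 259.5 and 259.5 CPM in the deletion libraries, against 241, 191 and 236 CPM in the wildtype libraries (log2 fold change 0.19 ± 0.11 SE, adjusted p = 0.688 by edgeR). Its lowest deletion value (243.1 CPM) and highest wildtype value (241.5 CPM) nearly met, and by TPM its groups overlapped. The part of the muscle markers in the F-box values was not tested. FBXO30, FBXO25 (the closest relative of FBXO32) and FBXO21 had log2 fold changes of 0.093, 0.080 and 0.018. Each was smaller than its SE (0.12, 0.12 and 0.091).

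Members tied to the cell cycle and growth control included the one with the largest fitted difference. FBXL18, reported to target another F-box protein, FBXL7, measured 16.2, 7.66 and 9.05 CPM in deletion replicates 1 to 3, against 20.3, 19.9 and 12.5 CPM in wildtype replicates 1 to 3. Deletion replicates 2 and 3 were lowest, deletion replicate 1 lay within the wildtype range, and wildtype replicate 3 lay between the deletion libraries (log2 fold change -0.67 ± 0.30 SE, adjusted p = 0.678 by edgeR, 95% interval -1.37 to 0.040). Its 3 highest libraries, wildtype replicates 1 and 2 and deletion replicate 1, were also the 3 with most reads in total. It stood at -1.08 without deletion replicate 1 (edgeR adjusted p = 0.184), at -0.72 with library size as a covariate and at 0.074 with the mitochondrial share as one. FBXL7 had a log2 fold change of -0.10.

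The remaining growth-control adaptors had smaller fitted differences. FBXW7, which marks cyclin E, MYC, JUN and NOTCH1 for degradation, measured 295, 313 and 341 CPM in the deletion libraries, against 314, 293 and 331 CPM in the wildtype libraries (log2 fold change 0.019 ± 0.095 SE, adjusted p = 0.964 by edgeR). Its 95% interval of -0.20 to 0.24 lay within a 1.5-fold change either way. FBXO31, an adaptor linked to cyclin D1 and DNA damage, measured 151, 173 and 175 CPM in the deletion libraries, against 175, 139 and 161 CPM in the wildtype libraries (log2 fold change 0.069 ± 0.11 SE, adjusted p = 0.881 by edgeR). FBXO4 measured 2.44, 2.11 and 1.78 CPM in the deletion libraries, against 1.56, 1.62 and 1.96 CPM in the wildtype libraries (log2 fold change 0.33 ± 0.25 SE, adjusted p = 0.728 by edgeR). FBXL15, FBXL12, FBXL2 and FBXO5 had log2 fold changes of 0.048, 0.0043, -0.031 and -0.18. Of the 8 tested members of this group 5 were positive and 3 negative (median 0.012).

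FBXO7, FBXL5 and FBXL4 bear on iron and mitochondria. FBXO7, in which loss of function causes a recessive parkinsonism in people, measured 26.6, 29.9 and 28.7 CPM in deletion replicates 1 to 3, against 29.998, 29.9 and 32.7 CPM in wildtype replicates 1 to 3. The deletion values were all below the wildtype values, but the highest deletion value (29.86 CPM) and the lowest wildtype value (29.90 CPM) nearly met (log2 fold change -0.12 ± 0.10 SE, adjusted p = 0.755 by edgeR). FBXL5, the iron-sensing adaptor of IREB2, and FBXL4, a mitochondrial protein whose loss depletes mitochondrial DNA in people, had log2 fold changes of 0.052 and 0.091, and both overlapped between groups. Among the adaptors that act on chromatin or transcription factors, FBXL19, which binds CpG islands, stood at -0.11, FBXO42, an adaptor of p53, at -0.023, and FBXO11, an adaptor of BCL6, at 0.069. FBXO11 measured 152, 141 and 151 CPM in the deletion libraries, against 133, 125 and 165 CPM in the wildtype libraries, with wildtype replicate 3 the highest of all.

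The 19 tested members outside these groups ranged from -0.39 (FBXL14) to 0.19 (FBXW4) on the log2 scale, with a median of -0.020. FBXO34 measured 44.999, 44.3 and 42.7 CPM in deletion replicates 1 to 3, against 54.6, 48.4 and 49.98 CPM in wildtype replicates 1 to 3. All deletion libraries lay below all wildtype libraries (log2 fold change -0.21 ± 0.093 SE, adjusted p = 0.678 by edgeR). FBXO38, which has been linked to PD-1 turnover in T cells, measured 36.3, 31.2 and 35.5 CPM in the deletion libraries, against 39.4, 40.1 and 38.2 CPM in the wildtype libraries, also without overlap (log2 fold change -0.19 ± 0.10 SE, adjusted p = 0.681 by edgeR). FBXW4 went the other way, at 28.2, 28.2 and 27.5 CPM in the deletion libraries, against 23.1, 25.8 and 24.4 CPM in the wildtype libraries (log2 fold change 0.19 ± 0.10 SE, adjusted p = 0.681 by edgeR). By TPM its groups overlapped, at 30.2, 26.5 and 26.5 TPM in the deletion libraries and 24.5, 29.6 and 25.8 TPM in the wildtype libraries.

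FBXL14, an adaptor of the transcription factor SNAI1, was among the more variable genes, at 6.51, 3.94 and 6.52 CPM in the deletion libraries, against 8.05, 8.71 and 5.37 CPM in the wildtype libraries (log2 fold change -0.39 ± 0.25 SE, adjusted p = 0.708 by edgeR). Deletion replicate 2 and wildtype replicate 3 were its lowest libraries, so the groups overlapped. Its log2 fold change was -0.20 without deletion replicate 2 and -0.25 without wildtype replicate 2. FBXO9 measured 69.5, 77.2 and 79.7 CPM in the deletion libraries, against 63.2, 62.8 and 78.6 CPM in the wildtype libraries (log2 fold change 0.15 ± 0.12 SE, adjusted p = 0.742 by edgeR). FBXO22 measured 81.9, 78.0 and 76.0 CPM in the deletion libraries, against 67.3, 69.3 and 77.4 CPM in the wildtype libraries (log2 fold change 0.14 ± 0.093 SE, adjusted p = 0.711 by edgeR) and FBXO33 27.0, 35.1 and 27.2 CPM in the deletion libraries, against 29.7, 36.6 and 37.4 CPM in the wildtype libraries (log2 fold change -0.22 ± 0.14 SE, adjusted p = 0.711 by edgeR). In all 3 genes the groups overlapped. The rest, from FBXO15 (-0.34) to FBXO39 (0.11), overlapped as well, and for FBXL17 (0.029) and FBXO3 (0.0081) the SE was 0.083 and 0.10.

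**Figure D4:**
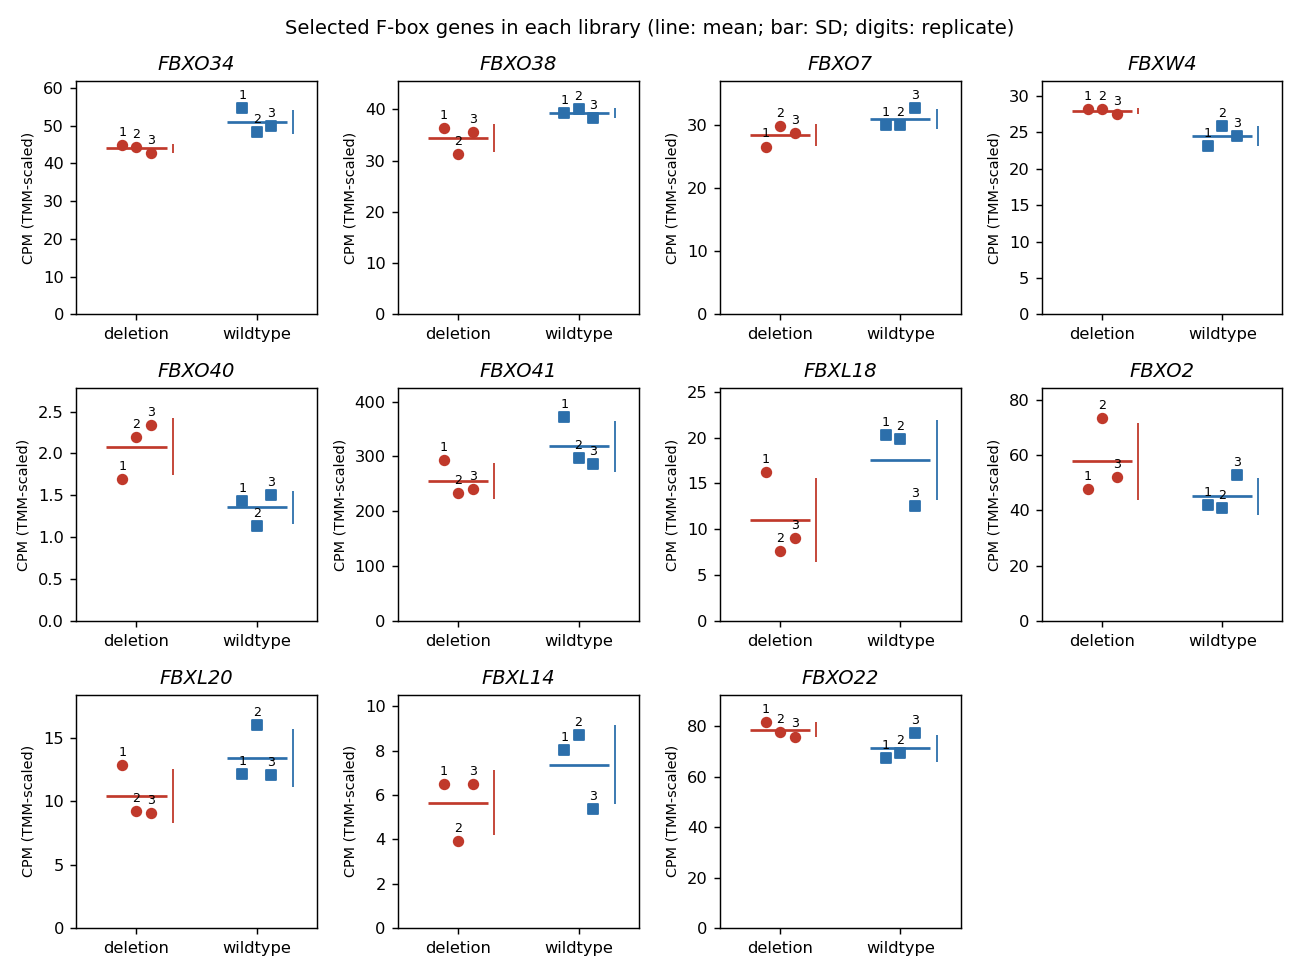
CPM after TMM scaling in each library for 5 F-box genes whose groups do not overlap and 6 others of low p, deletion left of wildtype (digits, replicate; line, mean; bar, SD, n = 3). FBXW4 shows tight groups by CPM, though they overlap by TPM. In FBXL18, FBXL20 and FBXO41 deletion replicate 1 lies within the wildtype range.

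Another 3 gene IDs, listed without a symbol in the files, are named FBXL8, FBXW9 and FBXO17 in the table of gene names. FBXO17, of the sugar-binding group, and FBXW9 had log2 fold changes of -0.081 and -0.011, and FBXL8 one of 0.19 on 12 to 26 reads. None passed edgeR's test (adjusted p of 0.91, 0.985 and 0.899). F-box proteins known under other symbols gave 8 tested genes, 2 positive and 6 negative (median -0.060). KDM2A, a histone H3 demethylase with an F-box, measured 41.0, 32.7 and 32.6 CPM in deletion replicates 1 to 3, against 52.8, 55.8 and 44.4 CPM in wildtype replicates 1 to 3. The deletion libraries were all below the wildtype ones (log2 fold change -0.52 ± 0.13 SE, adjusted p = 0.678 by edgeR). BTRC, the close relative of FBXW11, measured 105, 99.2 and 100.2 CPM in the deletion libraries, against 111, 126 and 109 CPM in the wildtype libraries, also without overlap (log2 fold change -0.18 ± 0.092 SE, adjusted p = 0.678 by edgeR), and 6.99% of all tested genes lay lower throughout in the same way. SKP2 and CCNF, which act in the dividing cell, stood at 0.057 and 0.22.

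The ligase parts that F-box proteins plug into had mostly positive log2 fold changes, and none passed. In the 5 genes of the SCF core, 4 log2 fold changes were positive (median 0.19, beside 0.0021 for all tested genes). RNF7, a RING protein that pairs mainly with CUL5, measured 90.8, 83.1 and 84.0 CPM in the deletion libraries, against 69.3, 71.5 and 73.8 CPM in the wildtype libraries (log2 fold change 0.26 ± 0.087 SE, adjusted p = 0.678 by edgeR). RBX1, the main RING protein of SCF, measured 139, 151 and 154 CPM in the deletion libraries, against 116, 129 and 135 CPM in the wildtype libraries (log2 fold change 0.22 ± 0.10 SE, adjusted p = 0.678 by edgeR). In both, the deletion libraries were all above the wildtype ones by CPM, as in 6.8% of all tested genes. By TPM, which was not rescaled for the mitochondrial share, the groups of RNF7 and of RBX1 overlapped. CUL1, SKP1 and CUL7 had log2 fold changes of 0.19, 0.091 and -0.13.

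NEDD8 attachment switches cullins on, the COP9 signalosome removes it, and CAND1 swaps one adaptor for another. Of 11 tested genes of NEDD8 attachment and exchange 7 were positive (median 0.045), with DCUN1D5 at 0.22, CAND2 at -0.17 and CAND1 at -0.11. Of 10 signalosome subunits 7 were positive (median 0.10), and 1 was higher throughout in deletion cortex, as were 6.8% of all tested genes: COPS9, at 81.6, 90.3 and 92.7 CPM in the deletion libraries, against 65.1, 76.8 and 77.6 CPM in the wildtype libraries (log2 fold change 0.27 ± 0.10 SE, adjusted p = 0.678 by edgeR). By TPM the groups of COPS9 overlapped. COPS5, the catalytic subunit, stood at 0.27. The 6 tested E2 enzymes had a median of 0.044, with UBE2D3 at 0.14 and UBE2D2 at 0.10. UBE2R2 was lower in every deletion library than in any wildtype library, as were 6.99% of all tested genes (log2 fold change -0.046). None of these genes passed edgeR's adjusted test.

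Of 22 tested genes whose proteins are known F-box substrates, 10 were positive and 12 negative (median -0.020), and none passed. The 4 with an unadjusted p under 0.05, all lower, were PER1, CRY2, PER2 and MTOR (18.2%, against 7.29% of all tested genes, 3.89% lower). PER1 and CRY2 were known to be low in these libraries when the list was made. The share of 18.2% was thus partly fixed by the choice of genes and is not read as a result about the list. The cryptochrome genes CRY2 and CRY1 had log2 fold changes of -0.37 and 0.046, and CRY2 measured 109 ± 2.00 CPM in deletion and 141 ± 11.7 CPM in wildtype cortex (SD, n = 3 each). PER2, a substrate of FBXW11 and BTRC, measured 34.6, 29.8 and 33.4 CPM in the deletion libraries, against 39.0, 37.8 and 39.9 CPM in the wildtype libraries (log2 fold change -0.25 ± 0.10 SE, adjusted p = 0.678 by edgeR). IREB2 stood at -0.24, MYC at -0.0074 and RIMS1, the gene of RIM1, at -0.28. These are mRNA levels, and no protein was measured.

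**Figure D5:**
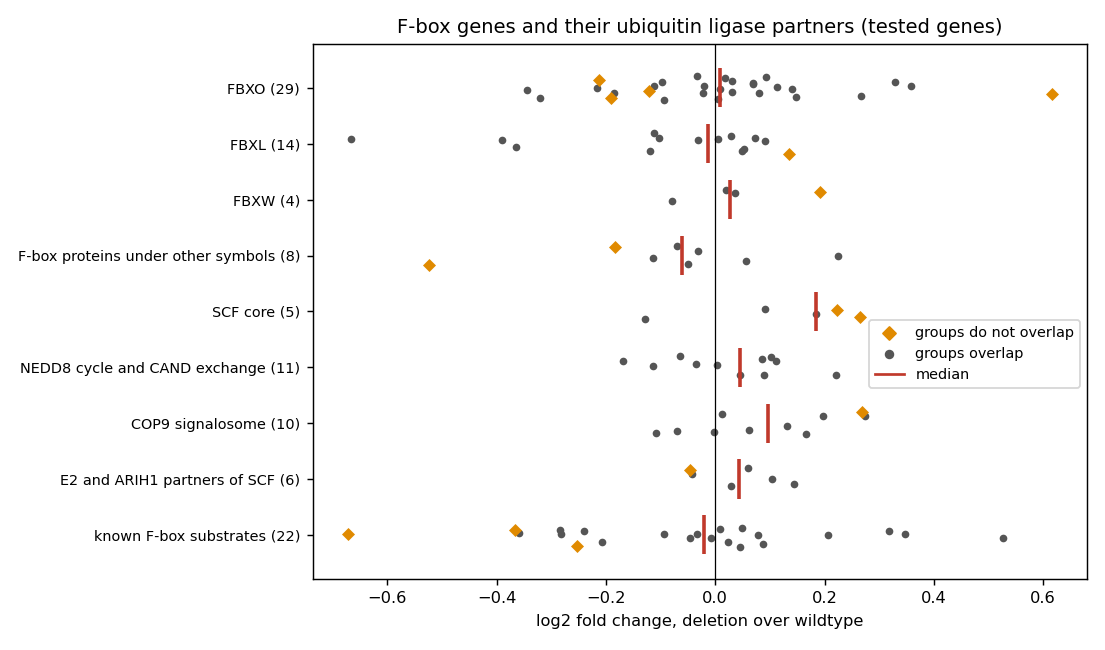
Log2 fold change of deletion over wildtype for the tested genes of each F-box subfamily and of the fixed lists of ligase partners and substrates (points, genes; diamonds, groups that do not overlap by CPM; red line, median; number tested in brackets). Medians lie between -0.060 and 0.19.

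In the authors' deposited table, which covers all 51 F-box genes, 0 have an adjusted p under 0.05 (lowest 0.722, FBXL18), beside 27 genes of any kind. The authors' deposited table gives an unadjusted p under 0.05 for 2 of the 51: FBXL18, with a fold change of -1.59 (p = 0.0108), and FBXO2, with 1.29 (p = 0.0403). The share of all genes under that unadjusted p was not computed for their values, so this count has no background beside it. For FBXO41 the authors' deposited table has a fold change of -1.24 (p = 0.053). A negative value there stands for a lower level in the deletion group.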

How the data were processed

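RNA came from 20 mg of frozen cortex of each of 6 animals. Its integrity number was over 6.1, and stranded mRNA libraries were read as pairs of 150 bases, per the labels' protocols. The sources used here do not name the aligner, counting tool, build or annotation, nor say if strand was used in counting. Per the file headers the authors deposited whole-number exon read counts per gene and library, which entered the tests as deposited, with blank cells read as 0. TPM values deposited by the authors were used to compare levels between genes and for the marker and F-box sums of each library. They entered no test. The authors' deposited table gives a signed fold change, which carries a minus sign where the deletion group is lower and was treated as a score of theirs, and per gene a p-value, raw and adjusted. Its 6 group CPM columns were not used.

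Genes with at least 10 reads in 3 or more libraries (14556) were scaled by TMM and tested for deletion against wildtype with edgeR 4.0.16 (quasi-likelihood F test, robust, no covariate) in R 4.3.3, and p-values were adjusted by Benjamini-Hochberg over all of them, with a threshold of 0.05. The SE is the size of the log2 fold change divided by the root of F. The edgeR step was checked on simulated data for the direction and size of fitted changes. Its power for differences as small as those of most members was not assessed. Libraries of a group differed beyond sampling noise (chi-square over its degrees of freedom, 11.7 to 41.8), so all 6 counted as separate. Replicate numbers follow accession order and pair no animals. The members and lists were chosen with earlier results of these data known. Counts, medians and sums cover all members, and the values of 1 member are not reported here. Named in full were otherwise the 15 members of lowest p, those whose groups do not overlap, the 8 of highest TPM and those next to the filter. Of 12719 gene IDs without a symbol, 785 were named from the table of gene names. Alternatives were other filters, DESeq2 1.42.0, its size factors, limma 3.58.1 (voom with sample weights), covariates, animals whose number starts with 15, and leaving out each library. Uniquely mapped reads were not compared.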

Additional observations from a re-analysis of the deposited data

How the results depend on the processing

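Over 18 other settings 0 F-box genes passed the adjusted test in each. Of 396 values for 22 named members, 380 kept their direction, and none with an adjusted p passed (DESeq2 gave none for FBXO40 and FBXO4). The median of all members was 0.024 without a filter on low counts, 0.029 in the animals whose number starts with 15, -0.017 with the mitochondrial share as a covariate (picked with the data in view, as were library size and an earlier edgeR method) and -0.017 to 0.021 when 1 library was left out. With the mitochondrial share the sign turned for FBXL14 (0.10), FBXL18 (0.074), FBXL20 (0.13), FBXO11 (-0.017), FBXO2 (-0.088), FBXO31 (-0.18), FBXO9 (-0.060) and FBXW7 (-0.13). In the animals of prefix 15 it turned for FBXL16 (0.044) and FBXO6 (0.083). Leaving out 1 library gave -0.20 to 0.017 for FBXL16, -0.17 to 0.036 for FBXO6, -0.011 to 0.20 for FBXO11, -0.018 to 0.15 for FBXO31 and -0.040 to 0.066 for FBXW7. It moved others by over 1.5 times: -0.35 to -0.15 for FBXO33, 0.20 to 0.43 for FBXO4, 0.091 to 0.26 for FBXO9, -0.16 to -0.074 for FBXO7 and -0.12 to -0.052 for FBXW11, beside those given above. The cause was not tested. The genes called among all tested were 1 in most settings, 2 without a filter, with the oligodendrocyte score, with library size and in the animals of prefix 15, 5 with the mitochondrial share, 21 with DESeq2 and 1 to 2 when 1 library was left out. No paired analysis was possible because the replicate numbers are accession order. The median 95% interval of a member reached 0.29 either way on the log2 scale before adjustment, and larger fitted differences did not pass the adjusted test either (KDM2A, -0.52).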
